A study of Rattus norvegicus with 12 samples.

Results

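TXNIP, ARRDC4, KLF10, MLXIP and MLXIPL belong to the glucose-sensing MondoA and ChREBP system. They were taken from the 20263 genes of the deposited tables by their human Ensembl identifiers, 5 in number, by a rule that names the genes and sets no threshold on their values. The names are those attached to these identifiers in the rule that selected them, since the files give identifiers alone. RNA had been measured by poly(A)-selected sequencing in H9C2 cells, a myoblast line derived from embryonic rat heart that the labels call wild-type cardiomyocytes. The HG-Res-SIRT7-Inh group received 100 mM glucose, 5 µM resveratrol and 5 µM of what the labels call an inhibitor of SIRT7, a sirtuin deacetylase. HG-Res received 100 mM glucose and 5 µM resveratrol, HG received 100 mM glucose with no drug, and Ctrl received 5.5 mM glucose with no drug. Each group had 3 biological replicates and 48 h in its medium. The inhibitor is named SirReal2 in the treatment protocol, a compound known chiefly as a SIRT2 inhibitor, and neither an osmotic control, a vehicle nor an inhibitor-only group is mentioned.

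MLXIP encodes MondoA and MLXIPL encodes its paralog ChREBP. Both are basic helix-loop-helix leucine zipper transcription factors that pair with MLX, respond to phosphorylated glucose, and bind carbohydrate response elements, each built of a pair of E boxes. TXNIP and ARRDC4 are known direct targets of MondoA. Both encode alpha-arrestins that lower glucose uptake, so the system feeds back on the sugar it senses, and TXNIP also binds and inhibits thioredoxin. KLF10 encodes a zinc finger repressor induced by TGF-beta, which in rodent hepatocytes is also a ChREBP target. In heart muscle, TXNIP is best known for its induction by high glucose and its tie to oxidative stress.

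The E box of the ARRDC4 promoter is shown because ARRDC4 and TXNIP had the most similar profiles among these genes. RefSeq's rat promoter table (build GRCr8, windows of 300 bases that span the gene start) held 3 of the 5 gene symbols, ARRDC4, MLXIP and MLXIPL. The rat Arrdc4 window lies at chr1:131793376-131793675 on the minus strand and is printed 5′ to 3′, with the E box CACGTG in capitals.

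Arrdc4: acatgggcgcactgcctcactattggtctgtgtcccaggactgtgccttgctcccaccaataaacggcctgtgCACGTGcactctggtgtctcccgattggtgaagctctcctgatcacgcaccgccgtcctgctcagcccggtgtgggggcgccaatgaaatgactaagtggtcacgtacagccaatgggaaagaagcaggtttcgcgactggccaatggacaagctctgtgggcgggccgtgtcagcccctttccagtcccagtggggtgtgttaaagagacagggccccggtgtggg

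The E box ran from 177 to 172 bases before the start. On either strand, CACGTG was found in 6.42% of the 33469 promoter windows of this length. A relaxed form, CACGNG, which includes CACGTG, was found in 26.1% of windows. Beside Arrdc4 it occurred in the Mlxip window, as CACGAG, from 46 to 41 bases before the start, and in neither of the Mlxipl windows. A pair of CACGNG on the same strand with 5 bases between them was found in 0.0359% of all windows and in none of the windows of Arrdc4, Mlxip and Mlxipl. Pairs on opposite strands, pairs with another spacing and pairs in which an E box departs from CACGNG were not searched. Carbohydrate response elements of these forms could have been missed. These matches describe rat sequence, whereas the identifiers of the tables have Ensembl's human prefix in all 20263 genes, which conflicts with the rat label and with the build rn6. Which species the values belong to was not settled, and the cell type could not be checked, since without names no marker gene could be looked up.

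Levels are CPM values (counts scaled to library size), which can be compared between libraries but not between genes, because gene length is not accounted for. The low values of each library were whole multiples of a step, which gave depths of 30.29 to 33.18 M reads. Changes were tested with limma on log2(CPM + 1) over the 9 high-glucose libraries, with Benjamini-Hochberg adjustment over the 12854 genes that had at least 0.5 CPM in at least 3 libraries. Of the 5 genes, 4 passed this filter and MLXIPL did not. Replicate 3 of HG-Res-SIRT7-Inh and replicate 2 of HG stood apart from the other libraries, at -50.7 and 29.7 on the first principal component of all tested genes, which held 56.1% of the variance. The other 7 libraries lay between -17.1 and 14.4. The median SD between replicates on the log2 scale was 0.242 in HG-Res-SIRT7-Inh, 0.0713 in HG-Res and 0.132 in HG. The limma p-values set a difference between groups against the spread between replicates, pooled over the 3 groups. In bulk RNA a change in the cells present cannot be told apart from a change in RNA per cell.

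The response of these genes to glucose itself was not analysed here. Ctrl values stand only in the deposited table of HG against Ctrl, a selected list of 354 genes beside the 20263 genes of the other tables. Of the 5 genes, 0 are among them, which says only that they were not selected. All values below come from cells in 100 mM glucose, so they compare groups with and without the compounds on top of high glucose.

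None of the 4 tested genes passed an adjusted p of 0.05 in any of the 3 comparisons. TXNIP and ARRDC4 had their highest means with resveratrol plus inhibitor and their lowest in high glucose alone, KLF10 had its highest mean with the inhibitor and near-equal means in the other groups, and the means of MLXIP lay close together. The largest fitted changes, in CPM + 1, were 1.42-fold for TXNIP, 1.51-fold for ARRDC4 and 1.34-fold for KLF10, each for HG-Res-SIRT7-Inh over HG. The comparisons share libraries, so their values are not independent of each other. The share of all tested genes that passed was 0.708% for HG-Res over HG, 6.07% for HG-Res-SIRT7-Inh over HG-Res, and 10.8% for HG-Res-SIRT7-Inh over HG.

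**Figure D1:**
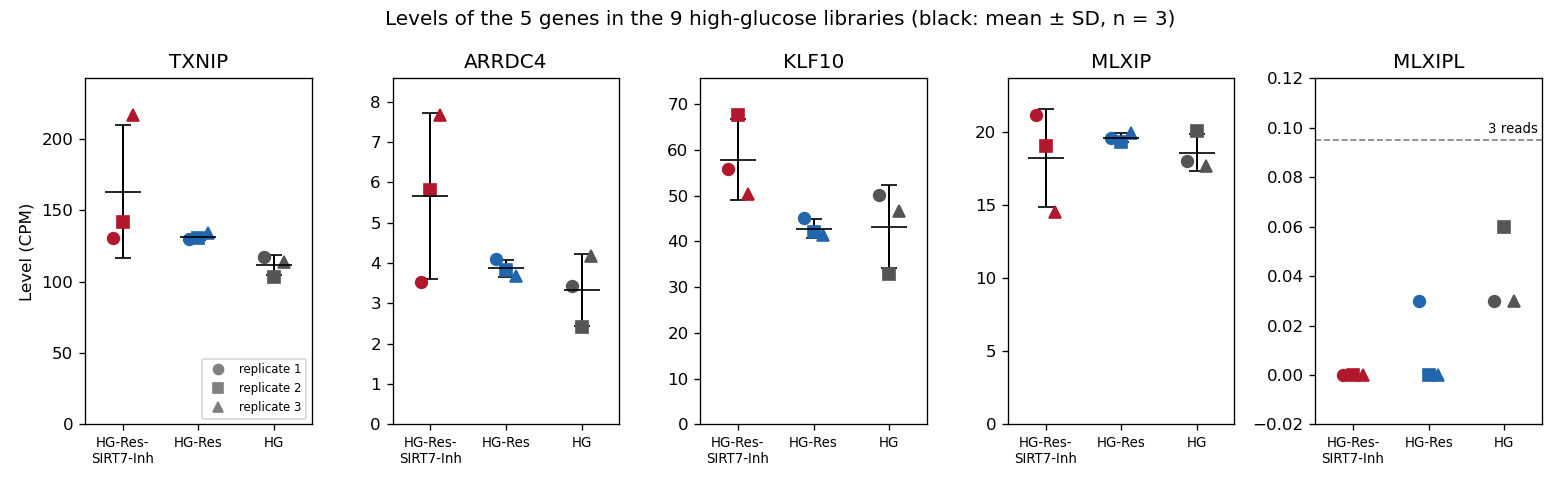
Level of each gene in CPM (vertical axes, a scale of its own per gene) in the 3 libraries of HG-Res-SIRT7-Inh, HG-Res and HG, with the symbol shape giving the replicate and the mean ± SD in black; for MLXIPL the dashed line marks 3 reads and no mean is drawn. TXNIP in HG-Res-SIRT7-Inh spans 130.3 to 216 CPM, whereas HG-Res spans 129.8 to 133.8 CPM.

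TXNIP (ENSG00000265972) is the thioredoxin-interacting protein gene and the most widely used readout of MondoA. It was at 130.3, 141.9 and 216 CPM in the HG-Res-SIRT7-Inh libraries, at 129.8, 130.5 and 133.8 CPM in HG-Res, and at 117, 103.4 and 113.9 CPM in HG. Every HG-Res and every HG-Res-SIRT7-Inh library was above every HG library, while HG-Res-SIRT7-Inh and HG-Res overlapped, with replicate 1 of HG-Res-SIRT7-Inh level with HG-Res. The means were 163 ± 46.7 CPM in HG-Res-SIRT7-Inh, 131 ± 2.12 CPM in HG-Res and 111 ± 7.12 CPM in HG (SD, n = 3 each). These values rest on about 3432 to 6552 reads per library, for which counting error alone is 1.24% to 1.71%, so the spread within HG-Res-SIRT7-Inh, a coefficient of variation of 28.7%, was well above counting error. In HG-Res it was 1.61%, close to counting error, and in HG 6.39%.

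Between HG-Res and HG the TXNIP change was 0.24 ± 0.17 on the log2(CPM + 1) scale (SE), a fold of 1.18 with a 95% interval of 0.906 to 1.53 (limma adjusted p = 0.724). The groups did not overlap, as was the case, with the higher group on the same side, for 15% of all tested genes. In the authors' deposited table the same comparison had a log2 fold change of 0.25 with a q-value of 0.0421, so TXNIP was past 0.05 there, as were 8.47% of the tested genes. It carried no mark in the authors' deposited table, where marks go with a p-value (not a q-value) under 0.05 and a fold over 1.5. The limma standard error pools the spread of all 3 groups. It was 0.0664 with HG-Res and HG alone in the fit (limma adjusted p = 0.0914) and 0.0683 without replicate 3 of HG-Res-SIRT7-Inh (limma adjusted p = 0.0787), with the change itself 0.24 in both.

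With the inhibitor added, TXNIP changed by 0.27 ± 0.17 against HG-Res (SE, limma adjusted p = 0.327). That is a fold of 1.21, with an interval of 0.927 to 1.57. Without replicate 1 of HG-Res-SIRT7-Inh it was 0.41 ± 0.164 (limma adjusted p = 0.0986). Most of the difference rested on replicate 3, which was 1.59 times the mean of the other 2 libraries of its group. Without replicate 3 the change was 0.05 ± 0.0764 (limma adjusted p = 0.735), and the gene was uncalled in both fits.

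Against HG, the TXNIP change in HG-Res-SIRT7-Inh was 0.51 ± 0.17 (SE), a fold of 1.42 with an interval of 1.09 to 1.85, and it did not pass (limma adjusted p = 0.0872). In the authors' deposited table it was 0.54 with a q-value of 0.142. The groups did not overlap, which held in the same direction for 12.8% of tested genes. In this comparison 12.6% of the tested genes had a larger change in either direction. TXNIP passed without replicate 1 of HG-Res-SIRT7-Inh (0.65 ± 0.164, limma adjusted p = 0.0317) and also without replicate 3 (0.29 ± 0.0764, limma adjusted p = 0.0318). In those fits 16.9% and 21.1% of all tested genes passed, so TXNIP was among many. Without both libraries that stood apart it was 0.23 ± 0.0656 (limma adjusted p = 0.0254), and 31% of genes passed.

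**Figure D2:**
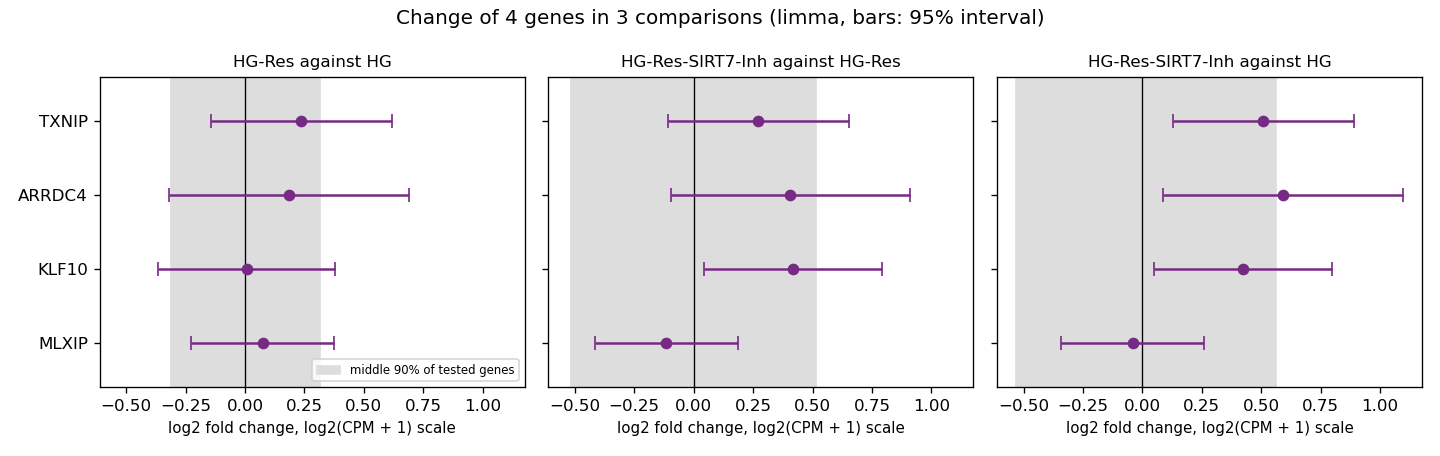
Fitted log2 fold change on the log2(CPM + 1) scale (horizontal axis) of TXNIP, ARRDC4, KLF10 and MLXIP in each of the 3 comparisons, with limma's 95% interval, over a grey band that holds the middle 90% of the tested genes. For HG-Res-SIRT7-Inh over HG the intervals of TXNIP, ARRDC4 and KLF10 lie above 0 before adjustment, and ARRDC4 at 0.59 lies just beyond the band, which ends at 0.56. Such intervals are common in this comparison, where 16%, 20.97% and 22.35% of tested genes have a smaller unadjusted limma p-value than TXNIP, ARRDC4 and KLF10.

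ARRDC4 (ENSG00000140450) encodes an alpha-arrestin closely related to TXNIP. It had 3.54, 5.81 and 7.66 CPM in the HG-Res-SIRT7-Inh libraries, 4.1, 3.83 and 3.67 CPM in HG-Res, and 3.43, 2.41 and 4.18 CPM in HG. Libraries 2 and 3 of HG-Res-SIRT7-Inh were above all others, but replicate 1 lay within the range of HG, so the groups overlapped in all 3 comparisons. The means were 5.67 ± 2.06 CPM in HG-Res-SIRT7-Inh, 3.87 ± 0.217 CPM in HG-Res and 3.34 ± 0.888 CPM in HG (SD, n = 3 each). With about 80 to 232 reads per library its counting error was 6.57% to 11.2%, so it was measured less precisely than TXNIP.

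The ARRDC4 change between HG-Res and HG was 0.19 ± 0.225 (SE, limma adjusted p = 0.865). Without replicate 2 of HG it was 0.02, and without replicate 3 of HG it was 0.32, so the value depended on which HG libraries were used. For HG-Res-SIRT7-Inh over HG-Res the change was 0.41 ± 0.225 (limma adjusted p = 0.28), and 0.19 without replicate 3 of HG-Res-SIRT7-Inh. Without its replicate 1 the change was 0.66 ± 0.18 and passed (limma adjusted p = 0.046), in a fit where 13.8% of genes did.

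For HG-Res-SIRT7-Inh over HG the ARRDC4 change was 0.59 ± 0.225 (SE), a fold of 1.51 with an interval of 1.06 to 2.14 (limma adjusted p = 0.124). The 1 added to each CPM value before the logarithm shrinks the fold of a gene at this level. With 0.1 added in its place the change was 0.71 (limma adjusted p = 0.127), and the ratio of mean CPM was 1.7. ARRDC4 carried the authors' upward mark in this comparison, with a log2 fold change of 0.76, a p-value of 0.0171 and a q-value of 0.134 in the authors' deposited table. The upward mark was given to 6.07% of the tested genes. ARRDC4 passed in limma without replicate 1 of HG-Res-SIRT7-Inh (0.84 ± 0.18, limma adjusted p = 0.0185), in a fit where 16.9% of tested genes did. Without replicate 3 of that group the ARRDC4 change was 0.38 ± 0.205 and did not pass (limma adjusted p = 0.228). Without both libraries that stood apart the change was 0.22 ± 0.175 (limma adjusted p = 0.389).

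KLF10 (ENSG00000155090), the zinc finger repressor gene, had 55.8, 67.5 and 50.3 CPM in the HG-Res-SIRT7-Inh libraries, 45.2, 42 and 41.3 CPM in HG-Res, and 50.2, 33 and 46.6 CPM in HG. All 3 inhibitor libraries were above all 6 others, though replicate 3 at 50.34 CPM exceeded HG replicate 1 at 50.21 CPM by less than counting error, which was 2.18% to 3.02% for this gene. Unlike TXNIP, KLF10 peaked in replicate 2 of HG-Res-SIRT7-Inh and not in replicate 3. The means were 57.9 ± 8.8 CPM in HG-Res-SIRT7-Inh, 42.8 ± 2.06 CPM in HG-Res and 43.3 ± 9.11 CPM in HG (SD, n = 3 each).

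The KLF10 change was 0.42 ± 0.167 for HG-Res-SIRT7-Inh over HG-Res (SE), a fold of 1.34 with an interval of 1.03 to 1.73 (limma adjusted p = 0.166). The authors' deposited table gave 0.40 with a q-value of 0.0849. Groups that did not overlap, with the inhibitor higher, were seen in 17.7% of tested genes against HG-Res and in 12.8% against HG. Over HG the KLF10 change was also 0.42 (SE 0.167, limma adjusted p = 0.135), and 0.24 ± 0.14 without replicate 2 of HG (limma adjusted p = 0.369). Between HG-Res and HG it was 0.01 ± 0.167 (limma adjusted p = 0.997), with an interval from 0.776-fold to 1.3-fold.

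The direction of that last KLF10 value turned with the libraries used, since it was -0.17 without HG replicate 2 and 0.12 without HG replicate 1. Without both libraries that stood apart, KLF10 passed for HG-Res-SIRT7-Inh over HG-Res (0.51 ± 0.0895, limma adjusted p = 0.00575) and over HG (0.34 ± 0.098, limma adjusted p = 0.0298). In those fits 18.8% and 31% of tested genes passed. Of the 4 genes, only KLF10 had a change over HG-Res that was larger in size without replicate 3 of HG-Res-SIRT7-Inh, at 0.51 ± 0.169 (limma adjusted p = 0.106).

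**Figure D3:**
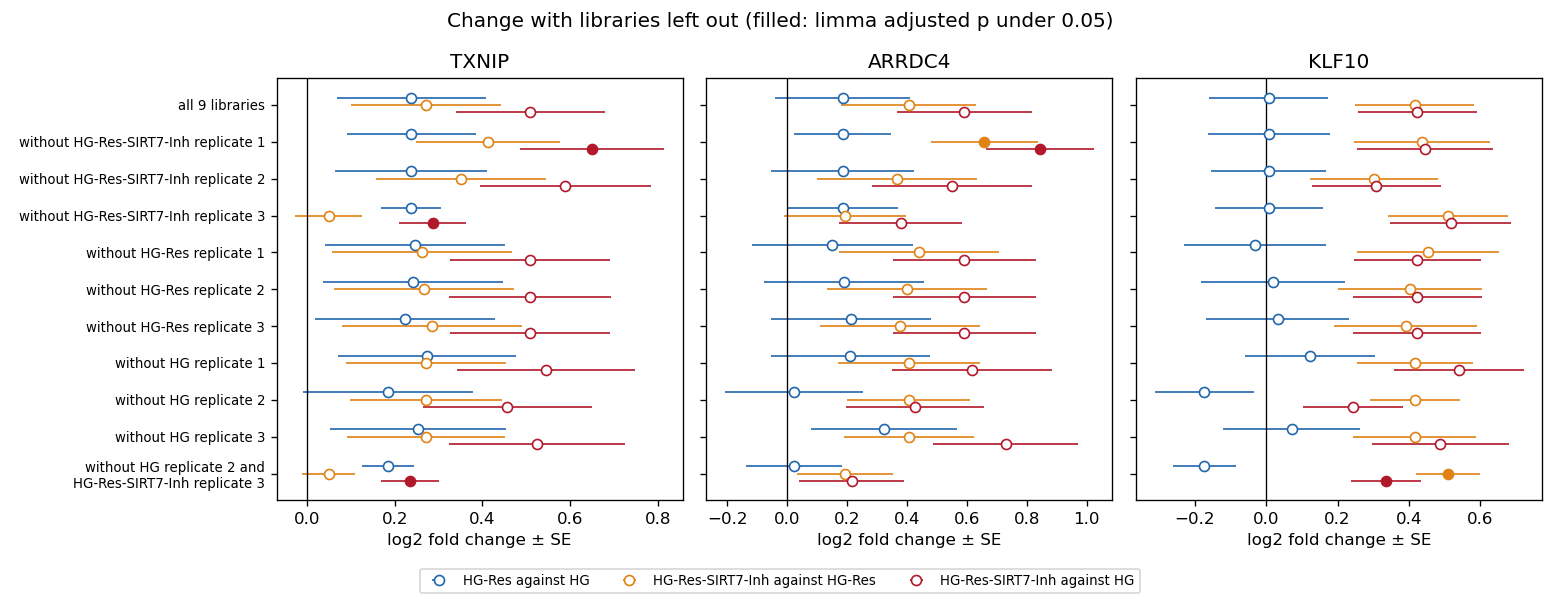
Log2 fold change ± SE (horizontal axes) of TXNIP, ARRDC4 and KLF10 in the 3 comparisons with all 9 libraries, with each library left out, and with both libraries that stood apart left out; filled points have a limma adjusted p under 0.05. For HG-Res-SIRT7-Inh over HG-Res, TXNIP is at 0.27 with all libraries and at 0.05 without replicate 3 of the inhibitor group.

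MLXIP (ENSG00000175727), the gene of MondoA itself, had 21.1, 19 and 14.5 CPM in the HG-Res-SIRT7-Inh libraries, 19.6, 19.3 and 19.9 CPM in HG-Res, and 18.1, 20.1 and 17.7 CPM in HG. The groups overlapped in all 3 comparisons, and replicate 3 of HG-Res-SIRT7-Inh was the lowest of the 9 libraries. The means were 18.2 ± 3.37 CPM in HG-Res-SIRT7-Inh, 19.6 ± 0.306 CPM in HG-Res and 18.6 ± 1.27 CPM in HG (SD, n = 3 each). About 440 to 675 reads per library gave a counting error of 3.85% to 4.77%.

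MLXIP did not pass in any comparison. The change was 0.08 ± 0.134 between HG-Res and HG (SE, limma adjusted p = 0.926). It was -0.12 ± 0.134 for HG-Res-SIRT7-Inh over HG-Res (limma adjusted p = 0.58) and -0.04 ± 0.134 over HG (limma adjusted p = 0.862). The intervals bound the folds at 0.855 to 1.3, 0.75 to 1.14 and 0.79 to 1.2 in that order of comparisons. Without replicate 3 of HG-Res-SIRT7-Inh the changes with the inhibitor were 0.03 against HG-Res and 0.11 against HG, and the change against HG was also positive, at 0.01, without replicate 2 of HG. The direction of these small changes thus depended on single libraries.

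MLXIPL (ENSG00000009950), the gene of ChREBP, which is abundant in liver and fat, was at the limit of detection. It was listed at 0 in all 3 HG-Res-SIRT7-Inh libraries, at 0.03, 0 and 0 CPM in HG-Res, and at 0.03, 0.06 and 0.03 CPM in HG. These values are 0 to 2 reads per library and 5 reads in all 9 libraries. A count of 0 allows up to 3 reads, which is 0.0904 to 0.0991 CPM in these libraries, and every value was under that limit. No difference between groups could be read at this depth, and no fold is given.

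Across the 9 libraries TXNIP and ARRDC4 followed a similar course, and MLXIP ran the other way at the extremes. Each gene's log2(CPM + 1) was centred and divided by its SD over the 9 libraries, and profiles were compared by their root-mean-square difference, where 0 is identical. ARRDC4 differed from TXNIP by 0.438, KLF10 by 1.03 and MLXIP by 1.74. Among the 10037 genes ranked, ARRDC4 was number 411 in likeness to TXNIP. KLF10 was number 3798 and MLXIP number 7945 among 10036 genes with a mean of at least 5 CPM, TXNIP left out.

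**Figure D4:**
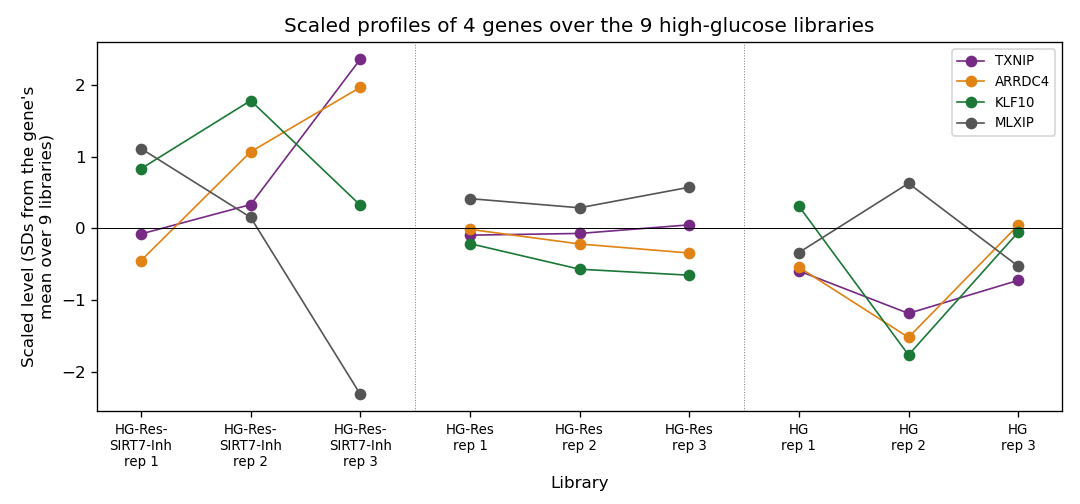
Scaled level (vertical axis, SDs from each gene's own mean over the 9 libraries) of TXNIP, ARRDC4, KLF10 and MLXIP in each library (horizontal axis, grouped by condition). TXNIP and ARRDC4 are highest in HG-Res-SIRT7-Inh replicate 3, at 2.36 and 1.97 SDs, where MLXIP is lowest at -2.31 SDs; the lines join libraries for legibility and mark no order.

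The genes closest to TXNIP were ENSG00000159063, with a difference of 0.0744, and ENSG00000141367, with 0.0894, and the third was at 0.172. ENSG00000159063 averaged 95.3 ± 37.9 CPM in HG-Res-SIRT7-Inh, 69.7 ± 2.33 CPM in HG-Res and 55.1 ± 5.49 CPM in HG (SD, n = 3 each). ENSG00000141367 averaged 388 ± 95.4 CPM in HG-Res-SIRT7-Inh, 316 ± 6.58 CPM in HG-Res and 274 ± 22.3 CPM in HG. Both repeated the order of the TXNIP means and its peak in HG-Res-SIRT7-Inh replicate 3, at 138 and 497 CPM. They were picked for this likeness, and the files do not pair them with names.

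Among TXNIP, ARRDC4, KLF10 and MLXIP, the profiles of ARRDC4 and TXNIP lay closest to the axis on which libraries differed most. Scaled in the same way and turned so that HG-Res-SIRT7-Inh replicate 3 is highest, the first principal component differed from ARRDC4 by 0.311 and from TXNIP by 0.464. KLF10 was at 0.811. MLXIP was at 0.569 from the same component turned the other way. How many of the other tested genes lay as close to this component was not examined, so closeness to it is not shown to be particular to these genes. In HG-Res-SIRT7-Inh replicate 3, TXNIP was 0.67 higher on the log2 scale than in the other 2 libraries of its group, and 8.77% of tested genes exceeded it there. ARRDC4 was 0.64 higher, with 9.79% of genes above it. The part of these libraries' general difference in the TXNIP and ARRDC4 changes was not tested.

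Ratios between genes within a library, which do not depend on how libraries are scaled, were also set side by side. The TXNIP to MLXIP ratio was 6.17, 7.45 and 14.9 in HG-Res-SIRT7-Inh, 6.63, 6.75 and 6.71 in HG-Res, and 6.48, 5.16 and 6.44 in HG. The HG-Res libraries were above all HG libraries, and HG-Res-SIRT7-Inh replicate 1 fell inside the HG range. However, 6.63 in HG-Res exceeded 6.48 in HG by less than the counting error of MLXIP, which was 3.85% to 4.77% per library. How many other ratios between genes separate these groups was not examined. The TXNIP to ARRDC4 ratio was 36.8, 24.4 and 28.2 in HG-Res-SIRT7-Inh, 31.7, 34.1 and 36.5 in HG-Res, and 34.1, 42.9 and 27.2 in HG. Here the groups overlapped, so the ratio of these alpha-arrestin genes to each other did not separate the conditions.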

How the data were processed

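The members and gene lists were chosen with earlier results of these data known. Per the submitters' processing notes, Trimmomatic and build rn6 were used; which aligner, counter or test was run is not given in sources used here. The authors deposited a value per library under the heading TPM; these deposited values behave as CPM, since every low value is a whole multiple of a library's step. The authors' deposited tables also give a log2 fold change and a p-value and q-value. Within the rounding of the files 100% of low values were multiples, but within 0.1 of a read only 57.39% to 100%, so recovered reads were treated as approximate and used for depth and counting error, which covers sampling of reads alone.

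Values were fitted as log2(CPM + 1), with no further scaling, by limma 3.58.1 in R 4.3.3 (group means of 3 groups, 9 libraries, intensity trend, Benjamini-Hochberg adjustment over 12854 genes). The fit was tested on simulated data. Unlike these data, they had the same setting of spread in all genes and groups and no library that stood apart. Alternatives were a pseudocount of 0.1, no filter or a filter at 1 CPM, median-of-ratios scaling, a single prior variance, 2 groups in the fit, a replicate block, voom on the approximate reads, the deposited q-values, and leaving out each library or both that stood apart. Replicates differed by more than sampling noise in all groups (mean chi-square per gene 5.26 to 173). All members are named; the genes most like TXNIP were ranked among those with a mean of at least 5 CPM. Lists of pathway genes and cell type markers were drawn up by symbol and not analysed here, as the annotation used is of rat and the identifiers are human.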

Additional observations from a re-analysis of the deposited data

How the results depend on the processing

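Each change was refitted under 19 alternatives. Of 228 values for TXNIP, ARRDC4, KLF10 and MLXIP, 220 stayed on the same side of the adjusted p of 0.05 and 8 moved past it; no call changed sign. TXNIP between HG-Res and HG passed only by the authors' q-values (0.25), and for HG-Res-SIRT7-Inh over HG without both libraries that stood apart (0.23) or without replicate 1 or 3 of HG-Res-SIRT7-Inh, where leaving out 1 library in turn gave 0.29 to 0.65. TXNIP and ARRDC4 kept their direction in all alternatives, while KLF10 between HG-Res and HG did so in 16 of 19 and MLXIP in 16 and 17 of 19 with the inhibitor against HG and HG-Res. Several alternatives left the fitted change itself as it was, so they could not alter a direction. These were the other filters, 2 groups in the fit, the replicate block, the single prior variance, and leaving out a library of the group not compared.

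The number of genes called moved far more. For HG-Res against HG (91 genes) it was 596 with 2 groups in the fit, 45 with the replicate block, 2722 without both libraries that stood apart and 1089 by the authors' q-values. For HG-Res-SIRT7-Inh over HG-Res (780) it was 414 with 2 groups and 2412 without both libraries, and for HG-Res-SIRT7-Inh over HG (1385) it was 420 and 3991. Leaving out 1 library gave 19 to 801, 276 to 1778 and 549 to 2717 genes. Deviations of same-numbered libraries from their group means correlated between -0.547 and 0.636. Libraries with different numbers were not compared in this way, so whether replicate numbers pair the samples was not settled. The replicate block changed no call among the members. A voom fit on approximate reads was chosen after seeing the data. The libraries that stood apart were also named from these data, and leaving both out took 1 library each from HG and HG-Res-SIRT7-Inh. Counting error limits ARRDC4 most, and MLXIPL could not be tested.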
